A study of Mus musculus with 29 samples.

Results

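The miR-181 guide strands are 4 mouse microRNAs (miRNAs), mmu-miR-181a-5p, mmu-miR-181b-5p, mmu-miR-181c-5p and mmu-miR-181d-5p. They were taken by name from a deposited table of 1183 miRNAs, and all 4 passed the filter on low counts in every comparison. A miRNA is a short RNA that guides Argonaute proteins to messenger RNAs and lowers their output, mainly through its seed, bases 2 to 8 from the 5′ end. The guide strand is the arm of the precursor hairpin that usually stays in Argonaute, and the other arm, here the 3p arm, is the passenger strand. miR-181a is best known from thymocytes, where it raises the sensitivity of T-cell receptor signalling by repressing phosphatases. In mouse myoblasts miR-181 is known to repress the homeobox factor Hoxa11 during differentiation, and in rat heart cells miR-181c was found in mitochondria.

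The libraries are small RNA of the tibialis anterior, a lower leg muscle, and of serum from C57BL/6 mice, sequenced to profile miRNAs in muscle atrophy of ageing and of induced wasting. The groups were old serum (24 months, 4 libraries), disuse serum (6 months with atrophy brought on by disuse, 5 libraries), young serum (6 months, 5 libraries), old muscle (24 months, 5 libraries), disuse muscle (6 months, again with disuse atrophy, 5 libraries) and young muscle (6 months, 5 libraries). Not given in the sources used here are the method of disuse, whether each library is a separate animal, and whether a mouse gave both muscle and serum. The p-values thus rest on the spread among these samples, part of which may be technical.

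Serum libraries held 45176 to 309133 counts and muscle libraries 254624 to 5943445, so serum values carry more counting error. The 6 striated muscle miRNAs made up 636 to 4654 CPM (the usual depth-scaled count, here over the library total) in serum libraries, against 377020 to 523946 CPM in muscle libraries. The erythrocyte list of 4 miRNAs made up 127715 to 355652 CPM in serum and 39754 to 91910 CPM in muscle. Of these 4, 2 passed the filter in muscle. In young mice all 4 were higher in serum than in muscle, with log2 fold changes from 1.44 to 7.12, so they differed in size and not in direction. Which cells gave the muscle counts of the list was not tested. In bulk samples fewer cells of a type and less RNA per cell cannot be told apart.

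The mature sequences, from RefSeq on build GRCm38.p6 (mm10), are shown because all comparisons between members rest on a few bases. Capitals mark the seed.
miR-181a-5p: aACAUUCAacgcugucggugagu
miR-181b-5p: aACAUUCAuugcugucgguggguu
miR-181c-5p: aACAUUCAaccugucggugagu
miR-181d-5p: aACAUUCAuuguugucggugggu
The seed ACAUUCA was shared by all 4 members and by no other of the 1679 mature mouse miRNAs in the RefSeq table. Counted from 1 at the 5′ end, miR-181c-5p differs from miR-181a-5p by the lack of the base at position 11 alone. miR-181d-5p differs from miR-181a-5p by A9U, C10U, C12U and A21G. miR-181b-5p carries A9U, C10U and A21G relative to miR-181a-5p and is 1 base longer, with 24 bases against 23. The sources used here do not give a rule for reads that match several members, so some counts may be shared between them.

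The members come from 3 pairs of hairpins. Mir181a-1 (chr1:137966455-137966541, plus strand) and Mir181b-1 (chr1:137966639-137966718) lie 97 bases apart in introns of the noncoding gene Gm4258, and both overlap an exon of the lincRNA A430106G13Rik. Mir181a-2 (chr2:38852735-38852810, plus strand) and Mir181b-2 (chr2:38853830-38853918) lie 1019 bases apart, opposite an intron of Nr6a1, a nuclear receptor gene on the minus strand. Mir181c (chr8:84178873-84178961, minus strand) and Mir181d (chr8:84178716-84178787) lie 85 bases apart in an intron of Nanos3, a germ cell gene on the same strand. Since miR-181a-5p and miR-181b-5p each come from 2 hairpins with an identical guide, their counts do not tell the loci apart.

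In serum, miR-181a-5p and miR-181b-5p were lower in old than in young mice, by 1.80-fold and 2.18-fold. miR-181c-5p and miR-181d-5p did not pass the test there. All 4 members also had negative fold changes in disuse serum, as did 67.3% of all tested miRNAs, but none of the members passed the test. The values below are CPM scaled by TMM, a normalisation that balances the bulk of miRNAs between libraries of a source.

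miR-181a-5p, the most abundant member, had 12497, 8421, 11335 and 12338 CPM in the old serum libraries. In young serum it had 28706, 18553, 17980, 17324 and 17933 CPM. On this scale every old library lay below every young library, and 1 young library stood far above the other 4. By library total the groups overlapped, at 6121 to 13886 CPM in old and 12200 to 38988 CPM in young serum. The log2 fold change was −0.85 ± 0.21 (SE; adjusted p = 0.0184, edgeR's quasi-likelihood test with Benjamini-Hochberg adjustment over 165 miRNAs).

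miR-181b-5p had 1096, 454, 697 and 704 CPM in old serum, resting on 32 to 143 counts. In young serum it had 2909, 1330, 1315, 1182 and 1221 CPM, resting on 73 to 528 counts. Again the groups did not overlap on the TMM scale, and the same young library was the high one. By library total they overlapped, at 330 to 1218 CPM in old and 832 to 3950 CPM in young serum. Its log2 fold change was −1.12 ± 0.31 (SE; edgeR adjusted p = 0.0274). Of the 165 miRNAs tested, 16 passed (9.70%), and 12 passed as lower (7.27%), against 2 of the 4 members. That background rests on single libraries too: 1 miRNA passed without old serum 2, and 9 without old serum 1 (1 higher, 8 lower).

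Both calls depended on single libraries. Without young serum 1, the log2 fold changes were −0.60 for miR-181a-5p (edgeR adjusted p = 0.0532) and −0.70 for miR-181b-5p (adjusted p = 0.0975), and without old serum 2 they were −0.74 (adjusted p = 0.0782) and −0.94 (adjusted p = 0.119). The call of miR-181b-5p was also lost without old serum 3 (−1.10, edgeR adjusted p = 0.0601) or old serum 4 (−1.03, adjusted p = 0.0526), at a fold change of about the same size. Neither passed with library totals in place of TMM, at −0.90 for miR-181a-5p and −1.20 for miR-181b-5p, or with a fit of the 2 groups alone, at −0.84 and −1.13, although these fold changes were about as large. The direction was lower in all of these.

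miR-181c-5p averaged 446 ± 164 CPM in old serum (SD, n = 4) and 699 ± 217 CPM in young serum (SD, n = 5). Its log2 fold change was −0.68 ± 0.30 (SE; edgeR adjusted p = 0.181). miR-181d-5p averaged 196 ± 65.5 CPM in old serum and 291 ± 165 CPM in young serum, with a log2 fold change of −0.64 ± 0.40 (SE; edgeR adjusted p = 0.389). For both, all 4 old libraries were below the young median on the TMM scale while the ranges overlapped. miR-181d-5p rested on 10 to 51 counts in old serum and 8 to 110 in young serum, and its 95% interval ran from −1.47 to 0.20. The median log2 fold change was −0.77 over the 4 members and −0.09 over all 165 tested miRNAs. Negative fold changes were found for 4 of 4 members and for 93 of the 165 miRNAs (56.4%). In how many of all miRNAs the groups did not overlap was not counted.

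Part of the erythrocyte markers, but no tested leukocyte marker, passed in the same comparison. Of the 4 erythrocyte miRNAs, 2 were lower in old serum, miR-144-5p (log2 fold change −2.16, edgeR adjusted p = 0.0154) and miR-451a (−0.82, adjusted p = 0.0363), and none was at 0 in any group. Their summed level was 114938 to 365896 CPM in old serum and 153379 to 505007 CPM in young serum. With TMM factors computed without these 4 miRNAs, miR-181a-5p had a log2 fold change of −0.83 (edgeR adjusted p = 0.0220) and miR-181b-5p one of −1.11 (adjusted p = 0.0276). Of the 6 leukocyte miRNAs, 5 were tested and none passed. The largest differences were 0.88 for miR-342-3p (log2 fold change, unadjusted p = 0.0493, edgeR adjusted p = 0.214), −0.64 for miR-142-3p (adjusted p = 0.303) and 0.55 for miR-223-3p (unadjusted p = 0.0395, edgeR adjusted p = 0.181). Their summed levels ran from 10645 to 21516 CPM in old serum and from 12200 to 20956 CPM in young serum. The part of blood cells in the miR-181 difference was not tested.

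**Figure D1:**
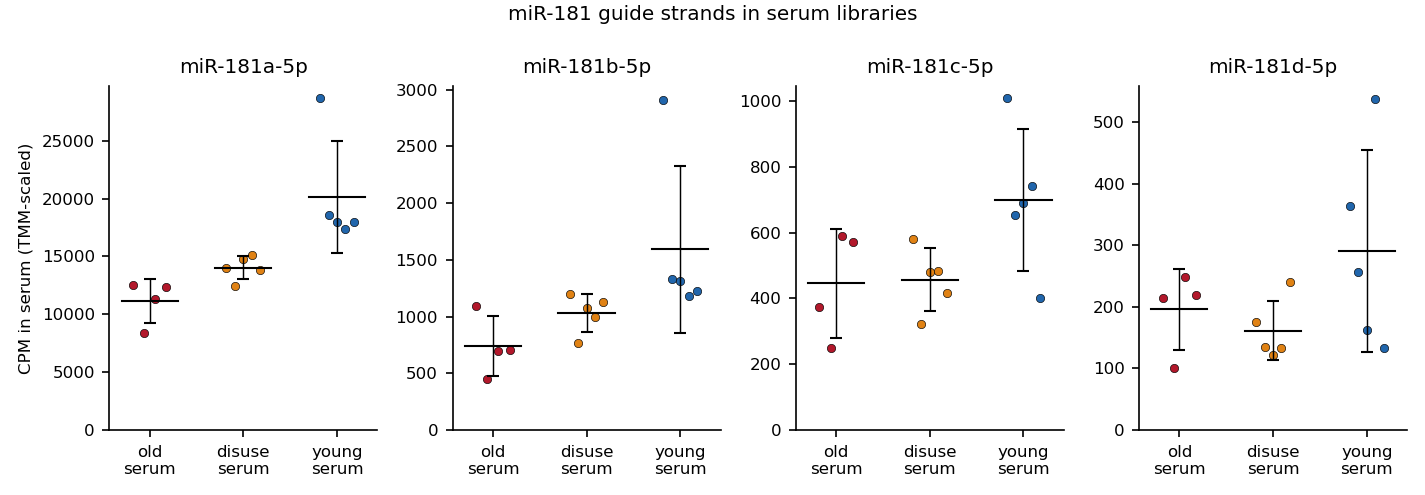
Level of each member in each serum library, in CPM scaled by TMM, with 1 panel per member and the groups old, disuse and young from left to right; points are libraries, lines are means and error bars are SD (n = 4, 5 and 5). For miR-181a-5p the old libraries end at 12497 CPM and the young ones start at 17324 CPM, and a young library at 28706 CPM stands above the rest.

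In disuse serum all 4 members had negative log2 fold changes against young serum, and none passed the test. miR-181a-5p had 13961, 12480, 14816, 15091 and 13849 CPM in disuse serum, on the TMM scale a range wholly below the young libraries given above. By library total the ranges overlapped, at 11488 to 17876 CPM in disuse and 12200 to 38988 CPM in young serum. Its log2 fold change was −0.52 ± 0.20 (SE; edgeR adjusted p = 0.358). miR-181b-5p had 763 to 1202 CPM in disuse serum (−0.63 ± 0.28, SE; adjusted p = 0.380 by edgeR), and 4 of the 5 young libraries lay above that range.

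The less abundant pair looked alike. miR-181c-5p averaged 457 ± 95.7 CPM in disuse serum and 699 ± 217 CPM in young serum (SD, n = 5 each; log2 fold change −0.62, edgeR adjusted p = 0.380). miR-181d-5p averaged 162 ± 48.4 CPM in disuse serum and 291 ± 165 CPM in young serum (SD, n = 5 each; log2 fold change −0.89, edgeR adjusted p = 0.358). In all 4 members, all 5 disuse libraries lay below the young median on the TMM scale. With edgeR 0 of 165 miRNAs passed (0%) and 20 had an unadjusted p under 0.05, the 4 members among them. DESeq2 and limma-voom also called 0. The median log2 fold change was −0.62 over the members and −0.09 over all tested miRNAs. Negative fold changes were found for 4 of 4 members and for 111 of the 165 miRNAs (67.3%). How many of all miRNAs had every disuse library below the young median, or no overlap with young serum, was not counted. The old and the disuse comparison share the 5 young libraries, so their common direction is not independent.

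Set directly against each other, old and disuse serum gave no member that passed. miR-181a-5p had a log2 fold change of −0.33 for old against disuse serum (95% interval −0.78 to 0.11) and miR-181b-5p one of −0.50 (−1.14 to 0.15). miR-181c-5p had −0.06 (−0.69 to 0.57) and miR-181d-5p had 0.25 (−0.59 to 1.09). By edgeR 4 of 165 miRNAs passed in this comparison (2.42%), and 0 members did, with 0 members at an unadjusted p under 0.05 and 17 miRNAs overall. DESeq2 and limma-voom called 0 members as well. The 4 became 0 without old serum 1, 2 or 3, or disuse serum 3, 4 or 5, and 1 without disuse serum 2.

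**Figure D2:**
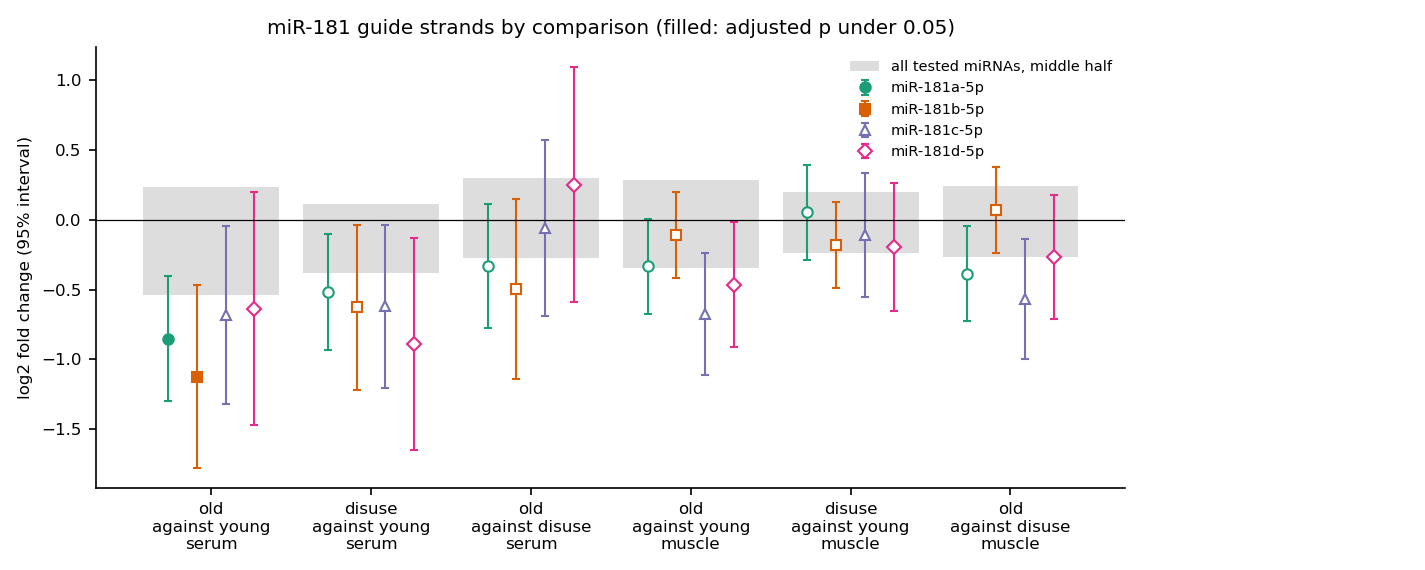
Log2 fold change of each member in the 6 comparisons within serum and within muscle, with 95% intervals from edgeR; filled symbols passed an adjusted p of 0.05 and grey boxes span the quartiles of all tested miRNAs. The filled symbols are miR-181a-5p at −0.85 and miR-181b-5p at −1.12 in old against young serum.

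In the tibialis anterior no member passed the test in any comparison. miR-181c-5p came nearest, lower in every old muscle library than the young median. It had 96.5, 58.3, 88.8, 55.1 and 87.5 CPM (scaled by TMM) in old muscle. In young muscle it had 171, 137, 88.1, 108 and 121 CPM. The groups overlapped through a single young library at 88.1 CPM. The log2 fold change was −0.68 ± 0.21 (SE; edgeR adjusted p = 0.0586, 341 miRNAs tested). It passed at an adjusted p of 0.0479 with DESeq2's size factors in edgeR, 0.0298 with library totals and 0.0174 with DESeq2, and also without old muscle 1 (0.0426) or young muscle 3 (0.0331).

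The other members differed less between old and young muscle. miR-181a-5p averaged 20736 ± 4124 CPM in old muscle and 26140 ± 3620 CPM in young muscle (SD, n = 5 each; log2 fold change −0.33, edgeR adjusted p = 0.226). miR-181d-5p averaged 56.4 ± 11.6 CPM in old muscle and 76.7 ± 22.5 CPM in young muscle (SD, n = 5 each; log2 fold change −0.46, edgeR adjusted p = 0.210). miR-181b-5p averaged 3654 ± 240 CPM in old muscle and 3946 ± 573 CPM in young muscle (SD, n = 5 each), with a log2 fold change of −0.11 and a 95% interval of −0.42 to 0.20. In this comparison 20 of 341 miRNAs passed (5.87%) and 73 had an unadjusted p under 0.05, against 0 and 2 of the 4 members. limma-voom called 0 members and DESeq2 1. Young muscle libraries were shallower, with a median of 2825032 counts in old and 535754 in young muscle, and after thinning to equal depth miR-181c-5p had a log2 fold change of −0.71 (edgeR adjusted p = 0.113). Among leukocyte miRNAs 1 of 6, mmu-miR-342-3p, was higher in old muscle (log2 fold change 1.17, edgeR adjusted p = 0.00679) and none lower, with summed levels of 21909 to 28244 CPM in old muscle and 14559 to 27938 CPM in young muscle. The part of leukocytes in the members' values was not tested.

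In disuse against young muscle the fold changes were small and no member passed. miR-181a-5p averaged 27098 ± 5108 CPM in disuse muscle and 26140 ± 3620 CPM in young muscle (SD, n = 5 each). Its log2 fold change was 0.05, with a 95% interval of −0.29 to 0.39. The sign of that small difference turned under other scalings. The other members had log2 fold changes of −0.18 for miR-181b-5p (95% interval −0.49 to 0.13), −0.11 for miR-181c-5p (−0.55 to 0.33) and −0.20 for miR-181d-5p (−0.66 to 0.26). Of 341 miRNAs 1 passed (0.293%) and 29 had an unadjusted p under 0.05 by edgeR, with 0 members in either count. With a library left out 0 to 2 passed. DESeq2 and limma-voom also called 0 members.

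Old muscle was also set against disuse muscle. miR-181c-5p averaged 77.2 ± 19.1 CPM in old muscle and 115 ± 12.1 CPM in disuse muscle (SD, n = 5 each; log2 fold change −0.57, edgeR adjusted p = 0.148). Every old library was below the disuse median, and the ranges overlapped through old muscle 1 at 96.5 CPM and disuse muscle 1 at 93.8 CPM. miR-181a-5p had a log2 fold change of −0.39 (edgeR adjusted p = 0.231), miR-181d-5p one of −0.27 (adjusted p = 0.580) and miR-181b-5p one of 0.07 (adjusted p = 0.896). In all, 12 of 341 miRNAs passed (3.52%) and 48 had an unadjusted p under 0.05 by edgeR, against 0 and 2 members. DESeq2 and limma-voom called no member here.

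**Figure D3:**
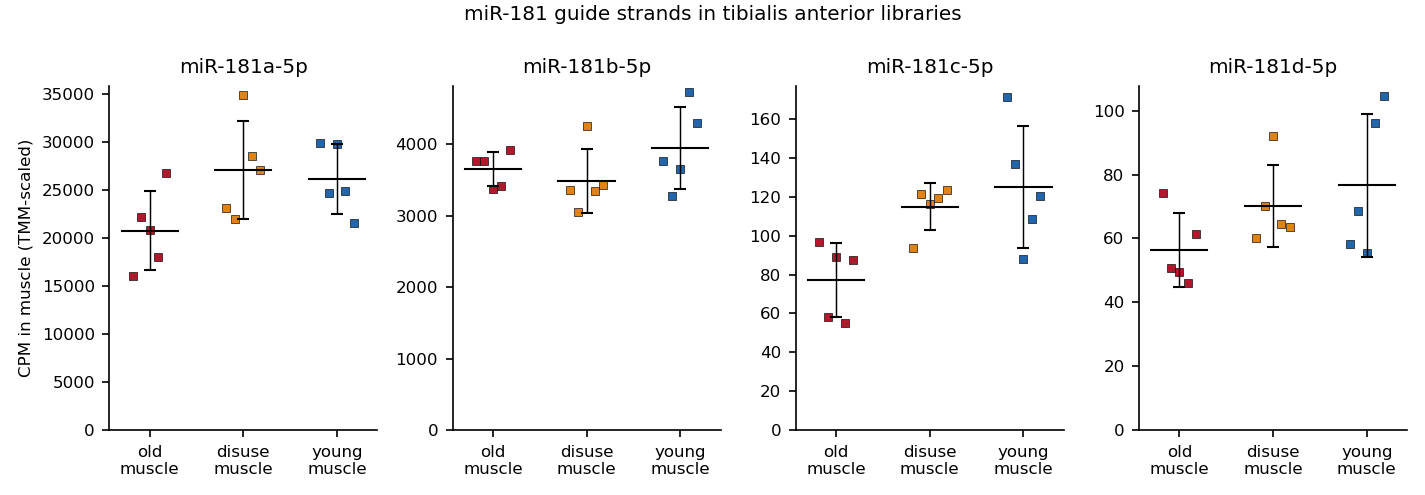
Level of each member in each tibialis anterior library, in CPM scaled by TMM, with the groups old, disuse and young from left to right; points are libraries, lines are means and error bars are SD (n = 5 each). The groups overlap in every panel, and miR-181c-5p spans 55.1 to 96.5 CPM in old muscle against 88.1 to 171 CPM in young muscle.

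An interaction fitted to all 29 libraries asked whether the age effect in serum differed from that in muscle. miR-181b-5p had the largest difference among the members, −0.87 on the log2 scale (edgeR adjusted p = 0.25, unadjusted p = 0.0208). The others were −0.39 for miR-181a-5p (95% interval −0.97 to 0.19), 0.12 for miR-181c-5p (−0.62 to 0.87) and −0.04 for miR-181d-5p (−0.98 to 0.90). In that test 2 of 241 miRNAs passed (0.830%) and 34 had an unadjusted p under 0.05, and with a library left out between 1 and 9 passed, 9 without young muscle 5. For disuse the same test gave 0 of 241 by edgeR (0%), with 24 miRNAs and 0 members at an unadjusted p under 0.05, and DESeq2 and limma-voom called 0 miRNAs. The passing of miR-181a-5p and miR-181b-5p in serum and not in muscle is therefore not shown to be a difference between the sources.

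Serum and muscle held the family in different proportions. In all 3 conditions miR-181a-5p and miR-181b-5p were lower in serum than in muscle, and miR-181c-5p and miR-181d-5p were higher. Serum and muscle RNA were extracted with different kits and at different input, which cannot be told apart from the source. The levels below are CPM of the library total, a scale common to both sources.

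miR-181a-5p averaged 11391 ± 3564 CPM in old serum, against 21211 ± 3972 CPM in old muscle. In disuse mice it averaged 14347 ± 2710 CPM in serum and 26116 ± 5399 CPM in muscle. In young mice it averaged 21266 ± 10469 CPM in serum and 26714 ± 4676 CPM in muscle (SD throughout, n = 4 in old serum and 5 elsewhere). The sources did not overlap in old or disuse mice, but in young mice the serum range of 12200 to 38988 CPM enclosed that of muscle. edgeR's log2 fold changes of serum over muscle, on the TMM scale, were −1.34 ± 0.23 in old (SE; adjusted p = 2.0e-05), −1.34 ± 0.15 in disuse (adjusted p = 4.3e-07) and −0.90 ± 0.26 in young mice (adjusted p = 0.00405). The young difference no longer passed with library totals, at −0.33 (edgeR adjusted p = 0.362), or with libraries thinned to equal depth, at −0.29 (adjusted p = 0.304).

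miR-181b-5p averaged 766 ± 365 CPM in old serum and 3739 ± 292 CPM in old muscle. In disuse mice it averaged 1060 ± 273 CPM in serum and 3360 ± 504 CPM in muscle. The averages in young mice were 1742 ± 1264 CPM in serum and 4022 ± 662 CPM in muscle (SD, n = 4 or 5). Only young serum 1, at 3950 CPM, reached into the muscle range. By edgeR the log2 fold changes were −2.77 ± 0.27 in old (SE; adjusted p = 7.3e-09), −2.15 ± 0.16 in disuse (adjusted p = 1.4e-09) and −1.87 ± 0.33 in young mice (adjusted p = 2.8e-05).

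miR-181c-5p went the other way, with 463 ± 219 CPM in old serum and 77.9 ± 13.6 CPM in old muscle. It averaged 473 ± 153 CPM in disuse serum and 110.3 ± 10.0 CPM in disuse muscle, and 741 ± 392 CPM in young serum and 127 ± 30.6 CPM in young muscle (SD, n = 4 or 5). The ranges of serum and muscle did not overlap in any condition. The log2 fold changes were 2.06 ± 0.32 in old (SE; edgeR adjusted p = 5.8e-06), 1.58 ± 0.18 in disuse (adjusted p = 4.9e-07) and 1.93 ± 0.32 in young mice (adjusted p = 1.9e-05).

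miR-181d-5p, the least abundant member, averaged 205 ± 92.7 CPM in old serum and 57.1 ± 7.22 CPM in old muscle. Its averages were 166 ± 56.1 CPM in disuse serum and 67.4 ± 13 CPM in disuse muscle, and 286 ± 150.3 CPM in young serum and 77.6 ± 21.6 CPM in young muscle (SD, n = 4 or 5). Here too the sources did not overlap in any condition. The log2 fold changes were 1.33 ± 0.33 in old (SE; edgeR adjusted p = 0.00114), 0.84 ± 0.20 in disuse (adjusted p = 0.00109) and 1.32 ± 0.40 in young mice (adjusted p = 0.00517).

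All 4 members passed in each condition, and so did most miRNAs. In old mice 219 of 316 miRNAs passed (69.3%), 44.6% as lower and 24.7% as higher in serum. The shares in disuse mice were 86.5% in all, 48.4% lower and 38.0% higher, and in young mice 76.3%, 43.7% and 32.6%. With a background this high, a call against muscle says little about the members. In how many of all miRNAs the ranges of serum and muscle did not overlap was not counted. The direction of all miRNAs moved with the scaling: over all tested miRNAs the median log2 fold change was −0.87 in old, −0.36 in disuse and −0.34 in young mice with TMM, and −0.48, 0.13 and 0.17 in the same order with library totals. In disuse mice 73 miRNAs were higher and 93 lower with TMM, against 88 higher and 73 lower with library totals.

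Ordered by mean CPM of the library total, miR-181a-5p ran from young muscle through disuse muscle, young serum, old muscle and disuse serum to old serum, with every neighbour overlapping. miR-181b-5p had its 3 highest means in muscle, and miR-181c-5p and miR-181d-5p had theirs in serum. For miR-181c-5p the step between old serum and young muscle and that between disuse muscle and old muscle were the ones where neighbouring ranges did not overlap.

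Ratios between members of the same library need no scaling, and they too differed between the sources. On the log2 scale, the ratio of miR-181c-5p to miR-181a-5p averaged −4.70 ± 0.42 in old serum and −8.08 ± 0.47 in old muscle, a difference of 3.39 (SD, n = 4 and 5; exact permutation test, two-sided, adjusted p = 0.0429 over 27 ratio tests). In disuse mice it averaged −4.95 ± 0.25 in serum and −7.86 ± 0.26 in muscle, and in young mice −4.87 ± 0.35 in serum and −7.72 ± 0.40 in muscle (SD, n = 5; differences 2.91 and 2.86, exact permutation adjusted p = 0.0306 each). In counts, miR-181a-5p outnumbered miR-181c-5p 19.2 to 44.7 times in serum libraries and 166 to 381 times in muscle libraries.

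miR-181d-5p rose relative to miR-181a-5p in the same way, by 2.66 in old, 2.12 in disuse and 2.20 in young mice. miR-181b-5p fell relative to miR-181a-5p, with differences of −1.48 in old, −0.83 in disuse and −0.99 in young mice. All 9 of these ratios between sources passed, at an exact permutation adjusted p of 0.0429 in old and 0.0306 in disuse and young mice (n = 4 or 5), with no overlap between serum and muscle. Ratios among other miRNAs were not tested, so no background share stands beside this count. Of all tested miRNAs, 69.3% passed between the sources in old, 86.5% in disuse and 76.3% in young mice. The smallest unadjusted p possible is 0.00794 for 5 against 5 libraries and 0.0159 for 4 against 5, and these 9 tests reached it.

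Within a source a single ratio test passed, and only in an adjustment shared with the tests between sources. Of the 18 ratio tests within serum or muscle 1 passed, that of miR-181b-5p to miR-181a-5p in old against disuse muscle. The ratio was −2.08, −2.56, −2.62, −2.39 and −2.77 in old muscle. In disuse muscle it was −2.78, −2.85, −3.03, −3.09 and −2.98. The groups were separated only narrowly, by the gap between −2.77 and −2.78, and the difference was 0.46 (exact permutation test, adjusted p = 0.0306, n = 5 each). The unadjusted p of that test was 0.00794, the smallest possible. Its adjustment ran over all 27 ratio tests, and those between sources, which all passed, lower the adjusted value. An adjustment over the 18 tests alone was not made. The next smallest unadjusted p among the 18 was 0.0635 (exact permutation test, miR-181d-5p to miR-181a-5p in old against disuse serum). With 0.00794 alone at the low end, the call would not pass over the 18, so it holds only within the 27. Whichever old muscle library was left out, this call was lost, and 6 of the 10 calls among the 27 tests were kept. The smallest unadjusted p of the exact permutation test for 4 against 5 libraries is 0.0159. Old against young muscle gave 0.24 for the same ratio (exact permutation adjusted p = 0.486, n = 5 each). In old against young serum it was −0.24 (exact permutation adjusted p = 0.486, n = 4 and 5), so the fall of miR-181a-5p and miR-181b-5p in old serum was not matched by a detected change in their proportion.

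As shares of the family's counts, miR-181a-5p made up 87.0 to 91.3% in serum libraries and 80.2 to 89.0% in muscle libraries. miR-181b-5p made up 4.92 to 8.82% in serum and 10.4 to 18.9% in muscle. The shares of miR-181c-5p were 2.04 to 4.58% in serum and 0.224 to 0.506% in muscle, and those of miR-181d-5p were 0.680 to 2.71% in serum and 0.165 to 0.403% in muscle. The whole family took 0.670 to 4.48% of a serum library and 1.86 to 3.85% of a muscle library.

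**Figure D4:**
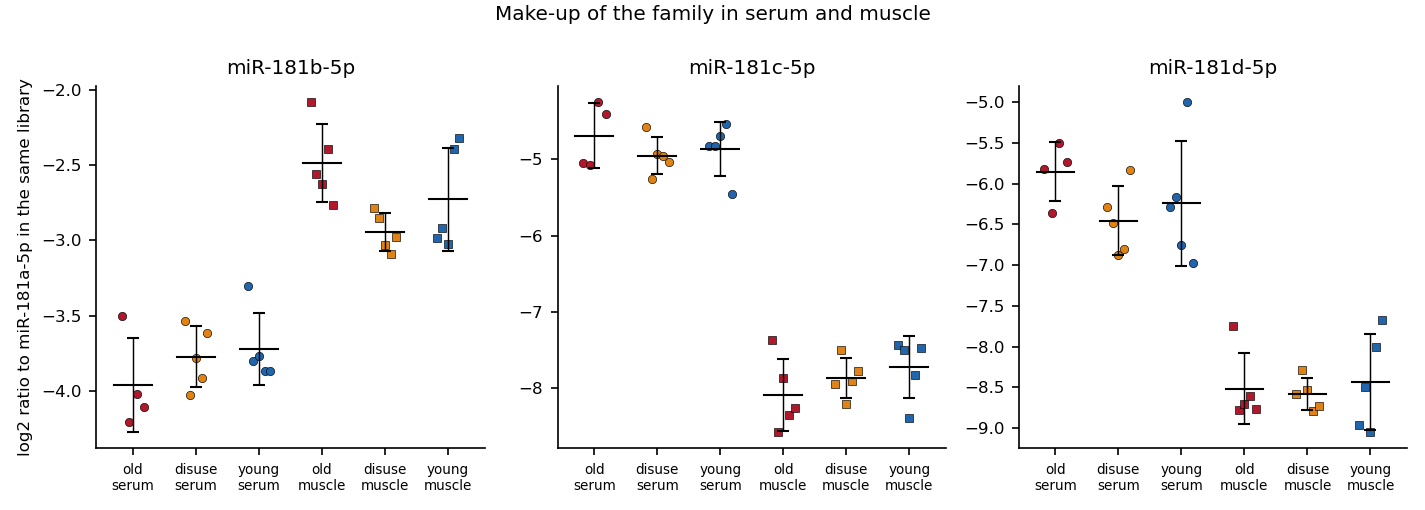
Log2 ratio of miR-181b-5p, miR-181c-5p and miR-181d-5p to miR-181a-5p in the same library, by group, with serum groups left of muscle groups; points are libraries, lines are means and error bars are SD (n = 4 in old serum, 5 elsewhere). Serum lies below muscle for miR-181b-5p and above it for the other members, for miR-181c-5p at −4.70 in old serum against −8.08 in old muscle.

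The passenger strands of miR-181a differ between its 2 hairpins, where the guides do not. Their counts give the hairpin of the passenger strand, and the part of each locus in the guide was not tested. The 3p arms of the miR-181a hairpins, with their 2 differing bases in capitals (U5C and U16C, counted from the 5′ end of miR-181a-1-3p), read as follows.
miR-181a-1-3p: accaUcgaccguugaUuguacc
miR-181a-2-3p: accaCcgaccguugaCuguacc
The hairpin of Mir181a-2 is shown with its 5p and 3p arms in capitals.
Mir181a-2: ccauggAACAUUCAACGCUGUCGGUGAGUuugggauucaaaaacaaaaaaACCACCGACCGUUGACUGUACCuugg

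miR-181a-2-3p, from chromosome 2, was nearly the whole of the miR-181a passenger counts in muscle. In serum the arm from chromosome 1, miR-181a-1-3p, was about as frequent. Summed over libraries, serum held 42 counts of miR-181a-2-3p and 37 of miR-181a-1-3p, a share of 53.2% for miR-181a-2-3p (exact 95% interval 41.6 to 64.5%). Muscle held 30529 and 359 counts, a share of 98.8% (98.7 to 98.95%). In single muscle libraries the share ran between 96.1 and 99.5%. These intervals cover counting error only, and single serum libraries held at most 12 counts of miR-181a-1-3p and 7 of miR-181a-2-3p.

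By level, miR-181a-2-3p averaged 15.4 ± 19.2 CPM of the library total in old serum and 1001 ± 130.2 CPM in old muscle (SD, n = 4 and 5). It averaged 16.5 ± 6.63 CPM in disuse serum and 739 ± 294 CPM in disuse muscle, and 21.5 ± 16.7 CPM in young serum and 1059 ± 418 CPM in young muscle (SD, n = 5). The serum levels rest on 0 to 7 counts per library, against 225 to 6280 in muscle, so no test is given. miR-181a-1-3p averaged 10.1 ± 9.53 CPM in old serum and 10.7 ± 2.20 CPM in old muscle (SD, n = 4 and 5), and its serum levels rest on 0 to 12 counts per library.

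Both miR-181a passenger arms together made up 0 to 0.355% of all miR-181a counts in serum libraries and 0.988 to 6.70% in muscle libraries. The serum library at 0%, old serum 2, had 0 of 1596 counts from the 3p arms, which allows a share of up to 0.188%. The muscle average was 4.70 ± 1.22% in old, 2.94 ± 1.47% in disuse and 3.82 ± 1.23% in young mice (SD, n = 5 each), with overlapping ranges. For miR-181c the passenger share was 0 to 7.84% in serum, with a median of 3.90%, and 0 to 20.7% in muscle, with a median of 14.6%. The muscle library at 0%, young muscle 1, had 0 of 47 counts from the 3p arm, which allows up to 6.38%, and the 3 serum libraries at 0% allow 7.89 to 11.5%. Within muscle no 3p arm passed in any comparison by edgeR: 0 of 3 in each of the 3, among 341 miRNAs tested, with 0 at an unadjusted p under 0.05.

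**Figure D5:**
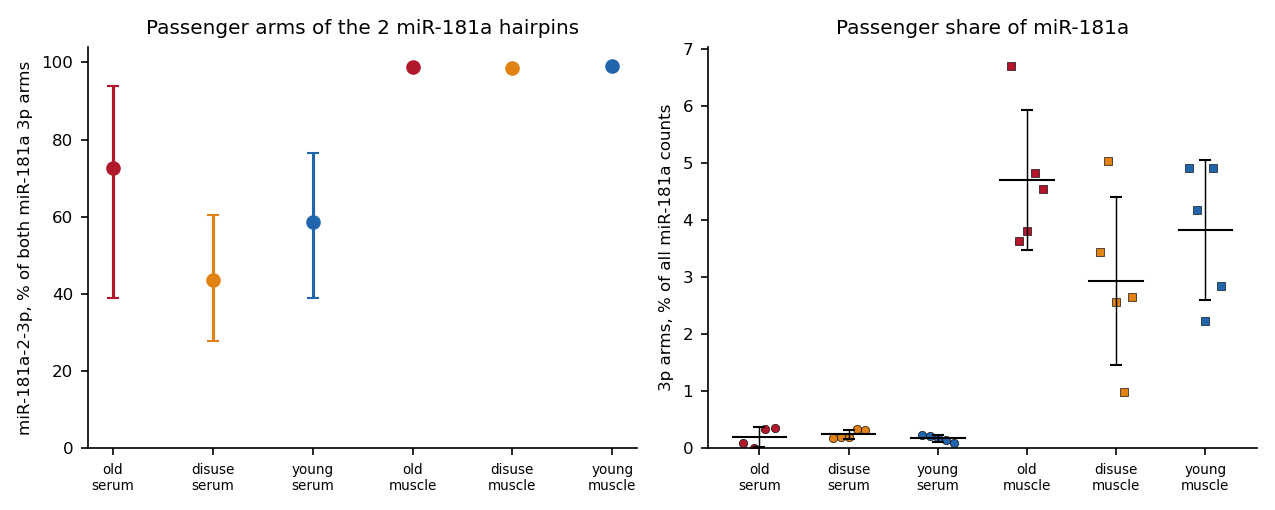
Left, share of miR-181a-2-3p among the summed counts of both miR-181a 3p arms per group, in percent with exact 95% intervals; right, share of the 3p arms among all miR-181a counts in each library, in percent, with mean and SD. In muscle the pooled share is 98.8% and the passenger share reaches 6.70%, and in serum the passenger share stays at or below 0.355%.

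The miRNAs whose levels moved most like the members' from library to library were found in each source. Likeness was Pearson's r of log2 CPM after the group means were removed, given as a description, since the points share libraries, depth and scaling. In the 14 serum libraries miR-181a-5p and miR-181b-5p were each other's nearest miRNA of all tested, at r = 0.917. The next for miR-181a-5p were miR-148a-5p (r = 0.885) and let-7c-5p (r = 0.876), and miR-181b-5p had the same pair at 0.801 and 0.816. Young serum 1 stood far above its group for miR-181a-5p and miR-181b-5p, at 28706 and 2909 CPM (TMM-scaled). The r of 0.917 was not recomputed without that library. The nearest to miR-181c-5p were miR-143-3p (r = 0.896), let-7i-5p (0.895) and let-7c-5p (0.775). For miR-181d-5p they were let-7i-5p (r = 0.786), let-7a-5p (0.753) and miR-128-3p (0.713).

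In the 15 muscle libraries miR-181a-5p and miR-181b-5p were related at r = 0.293. The nearest to miR-181a-5p there were miR-671-3p (r = 0.875), miR-8111 (0.833) and miR-667-3p (0.714). miR-181b-5p was nearest to miR-485-5p (r = 0.749), miR-181d-5p (0.721) and miR-127-3p (0.689). miR-181c-5p was nearest to miR-21a-3p (r = 0.867), miR-143-3p (0.860) and miR-25-3p (0.836), and miR-181d-5p to miR-411-5p (0.849), miR-378d (0.846) and let-7i-5p (0.820). The guides that share a hairpin pair on chromosome 8, miR-181c-5p and miR-181d-5p, were related at r = 0.649 in serum and 0.243 in muscle.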

How the data were processed

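The authors deposited raw counts, whole numbers of reads for each mature miRNA in 29 libraries. Per the labels' protocols, TruSeq small RNA libraries took 2 µg of Trizol-extracted muscle RNA or 10 ng of column-purified serum RNA, up to 15 PCR cycles and a gel cut at 145 to 160 bp. Bowtie and mm10 are named in the submitters' processing notes. The sources used here give neither the Bowtie version nor a rule for reads with several matches. Of 1183 miRNAs, 695 have 29 values and were used. The remaining 488, with 28 values (the leading 13 all 0), hold 17450 counts, or 0.0518% of muscle counts. The last column, empty in those 488, holds counts in the rest. All columns matched a library by title.

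Tests used edgeR 4.0.16 in R 4.3.3 (glmQLFit and glmQLFTest, TMM, filterByExpr, Benjamini-Hochberg adjustment over all tested miRNAs, threshold 0.05). Muscle (15 libraries) and serum (14) were fitted apart, serum and muscle together per condition, and interactions over all 29. SE are the log2 fold change over the root of F. Ratios between members used counts plus 0.5 and exact permutation tests (SciPy 1.17.1), adjusted over 27. Alternatives included DESeq2 1.42.0 and limma 3.58.1. The test was checked on simulated counts. Over 56 pairs of libraries within groups, the lowest chi-square per degree of freedom was 13.4, so none was a duplicate within counting noise.

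The genes named are the members, their 6 passenger arms, the 3 miRNAs nearest to each member, and markers that stand beside a result. Members and lists were chosen with earlier results of these data known.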

Additional observations from a re-analysis of the deposited data

Results flagged for a closer look

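Of 42 groups of values examined for a library far from the rest of its group (4 members and 3 ratios in 6 groups), 5 held one, and chance flags about 1 in 20. Young serum 1 stood above the other young serum libraries with 28706 CPM of miR-181a-5p and 2909 CPM of miR-181b-5p (TMM-scaled), and its log2 ratio of miR-181b-5p to miR-181a-5p, −3.30, was also the highest of that group. Disuse muscle 1 was lowest of its group for miR-181c-5p, at 93.8 CPM. Old muscle 1 was highest of its group for the log2 ratio of miR-181d-5p to miR-181a-5p, at −7.75.

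The 3p arms of 3 hairpins are in the part of the table whose miRNAs have 28 values, which no comparison used. Summed over those values, miR-181b-1-3p had 4 counts, miR-181b-2-3p had 22 and miR-181d-3p had 6. Which library each value belongs to was not settled, so none was set against the young libraries.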

How the results depend on the processing

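The count of members passing was 2 in old against young serum. It was 0 with library totals, with a 10 CPM filter and with the 2 groups alone, 1 with no filter and 1 after thinning, and 0 to 2 when each library was left out in turn. In old against young muscle it was 0, and 1 (miR-181c-5p) with DESeq2's size factors, library totals, upper-quartile factors, the 10 CPM filter and DESeq2, and 0 to 1 with a library left out. In young serum against young muscle it was 4, and 2 after thinning, where miR-181a-5p lost its call and miR-181d-5p fell below the filter and was not tested. In old serum against old muscle it was 4, and 3 after thinning, with miR-181d-5p again not tested. Signs of small differences turned. For miR-181a-5p in disuse against young muscle the log2 fold change was 0.05, and −0.0076 with DESeq2's size factors, −0.0077 with DESeq2, −0.033 with library totals, −0.10 with upper-quartile factors and −0.091 to 0.11 with a library left out. For miR-181d-5p there it was 0.16 after thinning. Leaving libraries out gave −0.13 to 0.064 for miR-181b-5p in old against young muscle and −0.27 to 0.15 for miR-181c-5p in old against disuse serum. For the age interaction miR-181c-5p had −0.026 with library totals, −0.073 with no filter, −0.055 with the 10 CPM filter, −0.073 after thinning and −0.25 to 0.29 with a library left out. miR-181d-5p there had 0.081 with DESeq2's size factors, 0.12 with upper-quartile factors, 0.071 with DESeq2, 0.022 with the replicate block, 0.27 after thinning and −0.37 to 0.35 with a library left out. For the disuse interaction it had 0.17 after thinning. The cause was not tested.

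Of the 27 ratio tests 10 passed, 6 to 10 with a library left out, where fewer libraries raise the smallest p a test can give, and 0 with the replicate number as a block, whose smallest p is 0.0625. Whether library numbers pair the samples was not settled. In no comparison did every pair of equal number correlate above 0.1, but the highest r was 0.447 in old against young serum. Samples of the same mouse need not correlate in this way, so the check cannot decide it. The block changed no other call of a member. Upper-quartile factors moved the median of all miRNAs in old against young muscle to −0.21, from −0.01, with 36 passing (2 higher, 34 lower) against 20 (4 higher, 16 lower). With library totals, 5 of 165 passed in old against young serum (2 higher, 3 lower), against 16 (4 higher, 12 lower), and 0 in old against disuse serum, against 4, as with the 10 CPM filter and the replicate block. Old against young serum gave 7 with the 10 CPM filter, 6 with the 2 groups alone and 8 after thinning. For the age interaction 6 passed with DESeq2's size factors (4 higher, 2 lower) and 11 with DESeq2, against 2. Reading the 28-value miRNAs from the right end, an alternative chosen after seeing the data, left the members' calls in muscle as they were. Low serum counts limit miR-181d-5p and all 3p arms most.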
